A study of Homo sapiens with 8 samples.

Results

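The apolipoprotein L (APOL) family described here comprised 5 genes, APOL1, APOL2, APOL3, APOL4 and APOL6, taken as the rows whose Ensembl gene ID carries one of these symbols in GENCODE release 29. They were 5 of 40295 gene IDs in the table of estimated counts, 1 ID per symbol, and all 5 passed the filter on low counts. APOL3, with 2 or 3 counts in each untreated library, passed only through the treated ones. The samples were HCT116 cells, a human colorectal carcinoma line, and a derivative made by CRISPR-Cas9 that carries the E33Q change in MED12, the subunit of the Mediator kinase module that activates CDK8. The groups were knock-in cells given interferon-gamma (IFN-γ) at 5 ng/ml for 24 h, untreated knock-in cells (0 h), wild-type cells after 24 h with the same dose, and untreated wild-type cells (0 h), with 2 libraries of rRNA-depleted total RNA each. The labels name a single knock-in line, and effects of E33Q cannot be told apart from clonal differences. Time in culture likewise cannot be told apart from IFN-γ.

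APOL proteins share membrane-inserting helices and sit in a cluster of genes on chromosome 22 that has expanded in primates. APOL1 is the secreted member, which circulates with high-density lipoprotein and lyses trypanosomes by forming ion channels, while the other members remain inside cells. IFN-γ binds its receptor and activates the kinases JAK1 and JAK2, and the transcription factor IRF1 is induced. IRF1 acts on genes of the interferon response, to which several APOL genes belong.

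Library totals ranged from 20901909 to 28045842 estimated counts. ERCC spike-ins took 0.228 to 0.271% of the counts of treated and 0.110 to 0.141% of those of untreated libraries, and scaling to them shifted the median gene on the log2 scale by −0.53 in the knock-in and −0.80 in the wild-type response. Unless another scaling is named, libraries were scaled by the trimmed mean (TMM), so a change is one against the bulk of genes. Transcript GC content, averaged over counts, also moved with treatment, at 47.9 to 48.1% in treated and 45.2 to 46.6% in untreated libraries. Of 10 epithelial markers, 8 had at least 10 counts in every library. LGR5 had 0 counts throughout and VIL1 0 counts in 5 libraries.

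Plasma cell markers stood apart between libraries. Their summed level was 178 and 662 CPM (counts scaled to the size of each library) in treated knock-in libraries 1 and 2, 233 and 790 CPM in untreated knock-in libraries 1 and 2, 118 to 120 CPM in treated wild-type and 711 to 872 CPM in untreated wild-type libraries. SDC1 and XBP1, which epithelial cells also express, made up nearly all of the low sums. The immunoglobulin genes IGKC, IGHA1 and IGHA2 had 0 counts in both treated wild-type libraries and in both knock-in libraries of number 1. In the other 4 libraries IGKC stood at 54.4 to 86.1 CPM, IGHA1 at 57.1 to 89.8 CPM and IGHA2 at 10.8 to 13.8 CPM. The signal thus differed with treatment in wild-type cells and between the replicates of the knock-in line. Its part in the wild-type results was not tested. In the knock-in line, the IFN-γ responses were measured again without both libraries of number 2, and are given so below for the members and the neighbours, partners and other apolipoproteins named. Markers of endothelium summed to at most 8.97 CPM, those of macrophages and other leukocytes to at most 4.04 CPM and those of fibroblasts to at most 7.58 CPM in any library.

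The position and structure of the family frame what its counts can show. On GRCh38, by GENCODE release 29, all 5 genes lie on chromosome 22. APOL6 spans 35648395 to 35668409 on the plus strand. APOL3 (36140330 to 36166177), APOL4 (36189124 to 36204840) and APOL2 (36226203 to 36239954) follow on the minus strand, and APOL1 (36253010 to 36267530) on the plus strand. None of them overlaps another annotated gene, and no other ID had counts identical to theirs. Their merged exons cover 10121 bases for APOL6, 5901 for APOL3, 4377 for APOL4, 3519 for APOL1 and 3484 for APOL2. APOL6 shares no stretch of 31 bases with another family member in the annotated transcripts. The shared part of such stretches was 5.49% for APOL1, 4.75% for APOL2, 2.03% for APOL3 and 1.18% for APOL4. Reads from these stretches can be divided between paralogues in an estimated count, so low levels of the 4 clustered genes are the more uncertain ones. APOL5, the remaining human member, had 0 counts in all 8 libraries, which allows at most 0.110 to 0.167 CPM in a library (3 counts, counting error only).

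The first comparison asked how the family responded to IFN-γ. In both lines APOL6, APOL3, APOL1 and APOL2 rose, and APOL4 was not called. The test was edgeR's quasi-likelihood test over 16519 genes with Benjamini-Hochberg adjustment and a threshold of 0.05. It called 4 of 5 members higher and 0 lower in knock-in cells, where it called 52.1% of all tested genes, 26.4% higher and 25.8% lower. In wild-type cells it again called 4 of 5 members higher and 0 lower, where it called 37.9% of all tested genes, 17.1% higher and 20.8% lower. The median log2 fold change of the 5 members was 6.32 in knock-in cells, against 0.12 for all tested genes, and 5.51 in wild-type cells, against 0.08 for all tested genes. Because APOL3 entered the test only through its treated libraries, these counts and medians describe the members and are not support for a property of the family.

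APOL6, an intracellular member with a BH3 motif that promotes cell death when overexpressed, had the highest level of the family with IFN-γ, also per length (given below). In knock-in cells it had 427 and 424 CPM in the treated libraries, against 3.23 and 3.45 CPM in the untreated ones. Wild-type cells had 424 and 443 CPM with treatment, against 1.84 and 2.71 CPM without it. The treated libraries lay far above the untreated ones in both lines and close to one another. The log2 fold change was 6.99 ± 0.19 (standard error, n = 2 per group) in knock-in cells (edgeR, adjusted p = 3.07e-07) and 7.58 ± 0.20 in wild-type cells (edgeR, adjusted p = 2.1e-07). These are folds of 127 and 191. In such bulk libraries fewer expressing cells and less RNA per cell cannot be told apart. Of 16519 genes ordered by log2 fold change from the top, APOL6 stood at place 25 in knock-in and 30 in wild-type cells.

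APOL3, a detergent-like protein that human cells use against cytosolic bacteria together with the guanylate-binding protein GBP1, was almost silent without IFN-γ. Its estimated counts were 772 and 679 in treated and 3 and 3 in untreated knock-in libraries. Wild-type libraries had 664 and 588 counts with treatment, against 3 and 2 without it. In CPM this was 28.3 and 27.1 in treated against 0.167 and 0.123 in untreated knock-in cells, and 25.3 and 24.0 in treated against 0.138 and 0.100 in untreated wild-type cells. The untreated counts are so few that the size of the rise is poorly fixed. The ratio of the summed, scaled counts was 195 in knock-in cells (95% counting interval 89.6 to 533) and 206 in wild-type cells (88 to 635). The fitted log2 values were 7.55 ± 0.27 (edgeR, adjusted p = 1.08e-06) and 7.62 ± 0.28 (edgeR, adjusted p = 9.82e-07), and depend on the prior count. These standard errors, taken from the F statistic, are narrower than the counting intervals allow. In knock-in cells DESeq2 gave a standard error of 0.64 and limma-voom one of 0.78.

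APOL1, the secreted member, also rose in both lines. The knock-in libraries had 32.3 and 32.6 CPM with IFN-γ, against 0.390 and 0.410 CPM without it. In wild-type cells it had 26.1 and 26.8 CPM with treatment, against 0.460 and 0.701 CPM without it. Untreated libraries held only 7 and 10 counts in knock-in and 10 and 14 in wild-type cells. The log2 fold change was 6.32 ± 0.25 in knock-in cells (edgeR, adjusted p = 1.26e-06) and 5.51 ± 0.24 in wild-type cells (edgeR, adjusted p = 1.84e-06). As ratios of summed, scaled counts these were 80.8 (95% counting interval 50.3 to 139) and 46 (30.8 to 72). Here too the edgeR standard errors are the narrower ones. In knock-in cells DESeq2 gave 0.42 and limma-voom 0.55.

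APOL2, a cytoplasmic member, rose less, and was present at several CPM without IFN-γ. In knock-in cells it had 60.04 and 56.7 CPM with treatment, against 11.4 and 6.89 CPM without it. Wild-type cells had 45.7 and 58.4 CPM with treatment, against 5.65 and 6.76 CPM without it. Treated and untreated libraries did not overlap, and within the untreated knock-in pair the libraries stood apart. The log2 fold change was 2.68 ± 0.25 in knock-in cells (edgeR, adjusted p = 0.00014) and 3.07 ± 0.25 in wild-type cells (edgeR, adjusted p = 0.000107), or 6.42-fold and 8.38-fold.

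APOL4, the least studied of the 5, stayed near the same level in all 4 groups. It had 5.27 and 4.63 CPM in treated against 3.90 and 4.10 CPM in untreated knock-in cells, and 4.04 and 4.37 CPM in treated against 3.54 and 4.26 CPM in untreated wild-type cells. The wild-type groups overlapped and the knock-in groups did not. The log2 fold change was 0.31 ± 0.27 in knock-in cells (edgeR, adjusted p = 0.385, 95% interval −0.30 to 0.92) and 0.11 ± 0.27 in wild-type cells (edgeR, adjusted p = 0.783, −0.50 to 0.72). A rise of the size of that of APOL2 lies outside both intervals. With the libraries scaled to the spike-ins, the APOL4 values turned to −0.22 (edgeR, adjusted p = 0.621) and −0.68 (edgeR, adjusted p = 0.11), still uncalled.

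**Figure D1:**
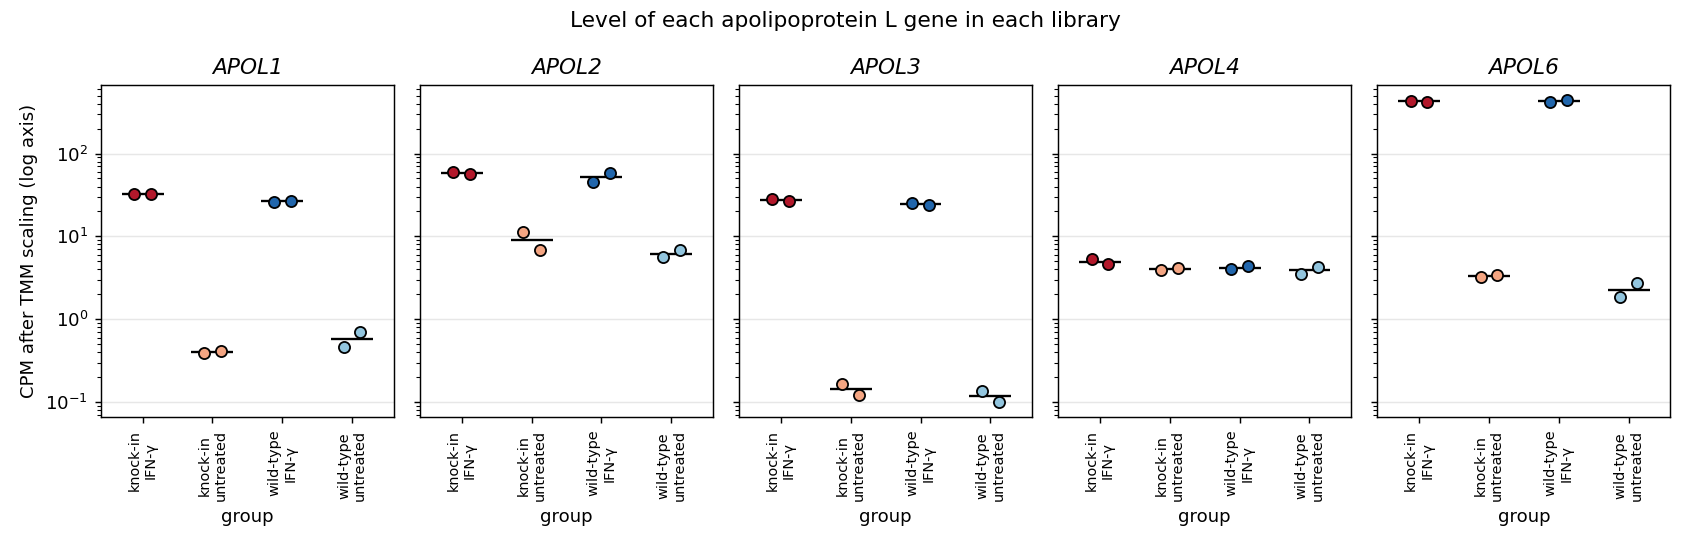
CPM after TMM scaling (log axis) of each gene in each library, with 1 point per library and a line at the mean of the 2 libraries of a group. APOL6 stands at 424 to 443 CPM in all treated libraries, while APOL4 stays between 3.54 and 5.27 CPM in all 8.

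**Figure D2:**
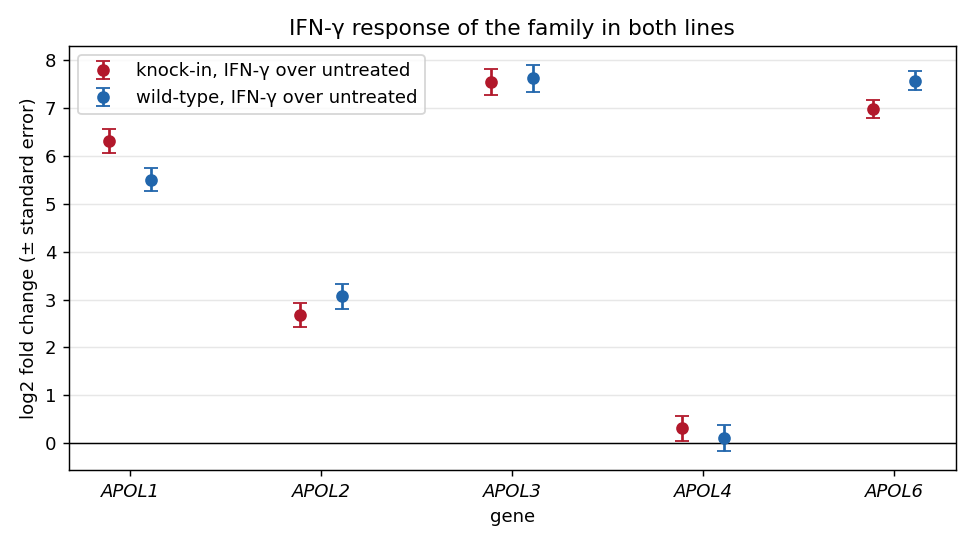
Log2 fold change of IFN-γ over untreated cells for each gene, with standard errors as bars, in knock-in and wild-type cells. The bars are taken from the F statistic and are too narrow for APOL3 and APOL1, which have few untreated counts. APOL3, APOL6 and APOL1 lie between 5.51 and 7.62, APOL2 at 2.68 and 3.07, and APOL4 at 0.31 and 0.11.

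The knock-in responses were also measured without the libraries of high plasma cell signal, both of number 2. This leaves 1 library in each knock-in group and takes the spread from wild-type cells, so sizes alone are given here. The log2 fold changes were 6.35 for APOL1, 2.39 for APOL2, 7.35 for APOL3 and 7.04 for APOL6. APOL4 was at 0.43. Under spike-in scaling the rises were 5.79, 2.14, 7.03 and 6.46 for APOL1, APOL2, APOL3 and APOL6 in knock-in cells, and 4.73, 2.27, 6.86 and 6.80 in wild-type cells, all called. For APOL3 neither setting is support, since it entered the test only through the libraries where it is high.

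A ratio of 2 members within a library does not depend on how libraries are scaled, and shows how unequal the responses were. The counts of APOL6 were 81 and 91.6 times those of APOL4 in treated and 0.829 and 0.84 times in untreated knock-in libraries. In wild-type cells they were 105 and 101 times those of APOL4 with treatment and 0.519 and 0.635 times without it. APOL2 counts were 11.4 and 12.2 times those of APOL4 in treated against 2.93 and 1.68 times in untreated knock-in libraries, and 11.3 and 13.4 times in treated against 1.6 and 1.59 times in untreated wild-type libraries. For both ratios every treated library lay above every untreated one.

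Per length, the order of the family changed with IFN-γ and was the same in both lines. Treated cells had APOL6 first, then APOL2, APOL1, APOL3 and APOL4. Untreated cells had APOL2 first, then APOL4, APOL6, APOL1 and APOL3. On the scale of CPM per kilobase of merged exons, treated knock-in cells averaged 42.1 ± 0.235 for APOL6, 16.8 ± 0.68 for APOL2, 9.23 ± 0.049 for APOL1, 4.69 ± 0.143 for APOL3 and 1.13 ± 0.105 for APOL4 (SD, n = 2). Untreated knock-in cells averaged 2.63 ± 0.919 for APOL2, 0.914 ± 0.033 for APOL4, 0.330 ± 0.015 for APOL6, 0.114 ± 0.0041 for APOL1 and 0.0246 ± 0.0053 for APOL3. No neighbours in these orders overlapped in the knock-in line.

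Wild-type cells gave the same picture per length. With treatment they averaged 42.8 ± 1.34 CPM per kilobase for APOL6, 14.9 ± 2.57 for APOL2, 7.52 ± 0.13 for APOL1, 4.18 ± 0.159 for APOL3 and 0.961 ± 0.052 for APOL4 (SD, n = 2). Without it they averaged 1.78 ± 0.225 for APOL2, 0.891 ± 0.116 for APOL4, 0.224 ± 0.061 for APOL6, 0.165 ± 0.049 for APOL1 and 0.0202 ± 0.0045 for APOL3. The ranges of APOL6 (0.182 and 0.267) and APOL1 (0.131 and 0.199) overlapped between the untreated wild-type libraries, while APOL6 was the higher in each of the 2.

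As a share of the summed per-length level, APOL6 made up 57.0 ± 0.541% in treated and 8.47 ± 2.22% in untreated knock-in cells, and 60.8 ± 1.5% in treated and 7.22 ± 0.92% in untreated wild-type cells (SD, n = 2). APOL2 made up 22.7 ± 0.579% in treated and 64.6 ± 8.87% in untreated knock-in cells, and 21.2 ± 2.47% in treated and 57.9 ± 1.07% in untreated wild-type cells. The share of APOL4 was 1.53 ± 0.119% in treated and 23.4 ± 5.92% in untreated knock-in cells, and 1.37 ± 0.0019% in treated and 28.9 ± 0.417% in untreated wild-type cells. The member with the largest share was thus APOL6 with IFN-γ and APOL2 without it. Summed over the family in CPM, without regard to length, counts rose 32.2-fold in knock-in cells. The mean was 549 CPM with IFN-γ against 17.0 CPM without it. In wild-type cells the sum rose 41.3-fold, to 540.5 CPM against 13.1 CPM. APOL6, with the longest exons, made up 77.2 to 80.7% of the treated sums in CPM. In CPM per kilobase the family summed to 74.7 and 73.1 in treated against 4.63 and 3.39 in untreated knock-in libraries. Wild-type libraries had 67.6 and 73.2 with treatment, against 2.77 and 3.40 without it. No test was run on these sums.

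Set among the 15280 tested genes with a known length, APOL6 stood at percentiles 94.99 to 95.1 of per-length levels in treated libraries of both lines, against percentiles 12.02 to 17.2 in untreated ones. APOL3 stood at percentiles 51.1 to 54.99 with IFN-γ, against 1.49 to 3.42 without it. APOL4 stayed between percentiles 25.8 and 29.5 in all 8 libraries. By this measure APOL3 with IFN-γ was near the middle of the tested genes.

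**Figure D3:**
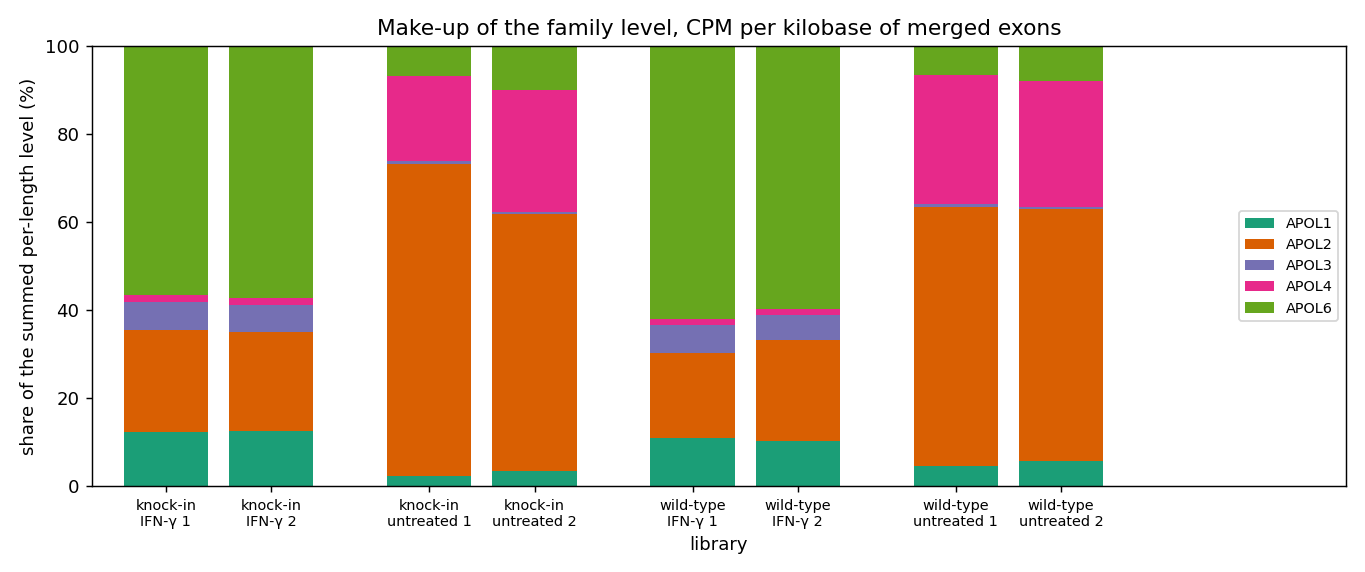
Share of each gene in the summed per-length level of the family (CPM per kilobase of merged exons, in %), 1 bar per library. APOL6 takes 56.6 to 61.9% of the treated and 6.57 to 10.0% of the untreated bars, and APOL2 takes 57.1 to 70.8% of the untreated ones.

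The second comparison asked whether the family differed between the lines. No member was called, in treated or untreated cells, by edgeR, DESeq2 or limma-voom with all 8 libraries. At an unadjusted p under 0.05, edgeR, DESeq2 and limma-voom each took 0 members with IFN-γ, while edgeR took 1, DESeq2 2 and limma-voom 0 without it. On that unadjusted measure edgeR took 2562 of all 16519 tested genes with IFN-γ and 4458 without it. DESeq2 took 2380 and 4218, and limma-voom 2893 and 4478. With adjustment, edgeR called 2.91% of all tested genes with IFN-γ, 1.63% higher and 1.28% lower in knock-in cells. Without IFN-γ it called 8.43%, 4.26% higher and 4.17% lower.

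With IFN-γ, the levels of both lines lay close together. The log2 difference of knock-in over wild-type cells was 0.30 ± 0.17 for APOL1 (edgeR, adjusted p = 0.457, 95% interval −0.09 to 0.68), 0.17 ± 0.22 for APOL2 (0.807, −0.34 to 0.67) and 0.17 ± 0.16 for APOL3 (0.706, −0.20 to 0.53). It was 0.24 ± 0.27 for APOL4 (edgeR, adjusted p = 0.757, −0.37 to 0.84) and −0.02 ± 0.14 for APOL6 (0.964, −0.33 to 0.28). These intervals do not contain a 2-fold difference in either direction. Both treated knock-in libraries exceeded both treated wild-type libraries for APOL1 (32.3 and 32.6 against 26.1 and 26.8 CPM), APOL3 (28.3 and 27.1 against 25.3 and 24.0 CPM) and APOL4 (5.27 and 4.63 against 4.04 and 4.37 CPM), by less than the test could call. For APOL2 and APOL6 the treated libraries of both lines overlapped. How often all tested genes separate in this way was not counted, so the separation only describes these libraries. The APOL6 value is near 0 and changed sign under several alternatives, between −0.081 and 0.036.

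Without IFN-γ, APOL6 and APOL2 were the higher and APOL1 the lower in knock-in cells by value, with none called. APOL6 had 3.23 and 3.45 CPM in knock-in against 1.84 and 2.71 CPM in wild-type cells, so the groups did not overlap. The log2 difference was 0.56 ± 0.21 (edgeR, adjusted p = 0.117, unadjusted p = 0.0218). It was called without untreated wild-type library 2 (0.87, edgeR, adjusted p = 0.0101) and was 0.30 (adjusted p = 0.454) without untreated wild-type library 1. Over its alternatives the adjusted p ran from 0.0101 to 0.556.

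APOL2 differed by 0.55 ± 0.25 without IFN-γ (edgeR, adjusted p = 0.194), a value that rested on untreated knock-in library 1. It was 0.16 (adjusted p = 0.775) without that library and 0.88 (adjusted p = 0.1) without untreated knock-in library 2. APOL1 was at −0.52 ± 0.33 (adjusted p = 0.477) on 17 counts in knock-in and 24 in wild-type cells. APOL3 was at 0.24 ± 0.51 (adjusted p = 0.892) on 6 and 5 counts, a depth at which a difference of this size was not detectable. APOL4 was at 0.04 ± 0.27 (edgeR, adjusted p = 0.948, 95% interval −0.58 to 0.65).

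The third comparison asked whether the response itself differed between the lines, as the log2 fold change in knock-in less that in wild-type cells. No member was called, and edgeR called 0% of the tested genes. At an unadjusted p under 0.05 edgeR took 1119 genes and 1 member, APOL6. On that measure DESeq2 took 999 genes and 1 member, and limma-voom 1180 genes and 0 members. With adjustment DESeq2 called 4 genes and limma-voom 0, none of them a member. APOL6 had a difference of −0.59 ± 0.25 (edgeR, adjusted p = 0.688, unadjusted p = 0.0399, 95% interval −1.15 to −0.03) and APOL1 one of 0.81 ± 0.37 (adjusted p = 0.688). The values of APOL2 (−0.39 ± 0.34, adjusted p = 0.736), APOL4 (0.20 ± 0.38, 0.891) and APOL3 (−0.07 ± 0.49, 0.985) were nearer 0. The untreated libraries enter these differences and the untreated line comparison alike, so both carry the same few untreated counts.

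The ratio of APOL6 to APOL1 counts shows the same values free of scaling. This pair was chosen after its values were seen, so the ratios are a description with no test. In treated cells the ratio was 13.2 and 13 in knock-in and 16.2 and 16.5 in wild-type libraries. In untreated cells it was 8.29 and 8.4 in knock-in and 4 and 3.86 in wild-type libraries. The summed untreated counts gave 8.35 in knock-in cells (95% counting interval 5.04 to 14.7) and 3.92 in wild-type cells (2.48 to 6.41), intervals that overlap. Summed treated counts gave 13.1 in knock-in cells (12.5 to 13.8) and 16.4 in wild-type cells (15.5 to 17.3), intervals that do not overlap. All of these cover counting error only and not the spread between libraries.

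**Figure D4:**
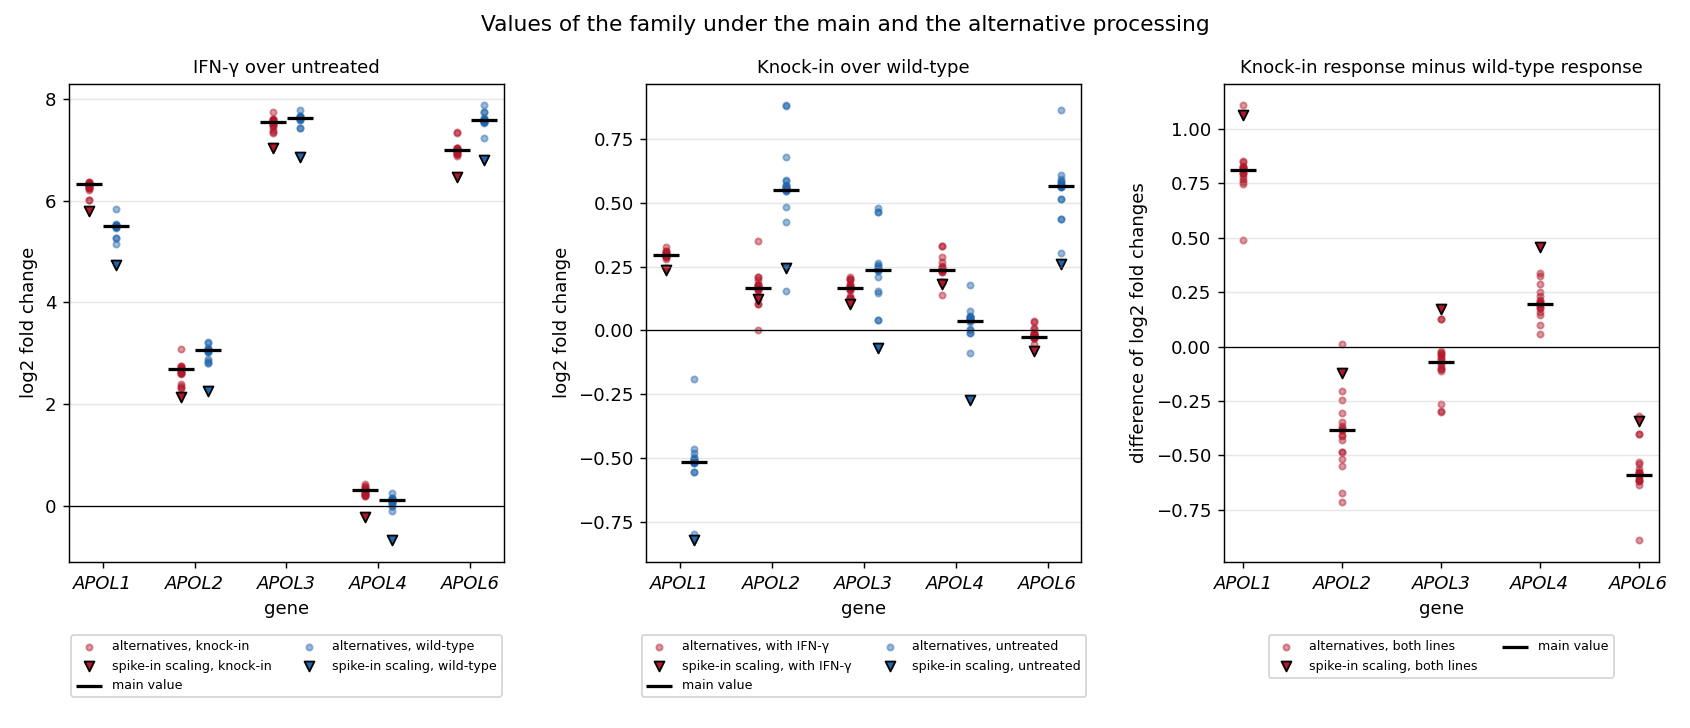
Values of each gene under the main processing (black bar), under each alternative (points) and under spike-in scaling (triangles), as log2 fold change of IFN-γ over untreated cells (left), of knock-in over wild-type cells (middle) and as the difference between the responses (right). The 4 induced genes stay at 2.14 or above in every alternative on the left, while the middle panel runs from −0.82 to 0.88.

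Around the cluster, no tested neighbour on chromosome 22 had a log2 fold change as high as those of the 4 induced members. Of 12 listed neighbours 10 were tested, and APOL5 and MB were not. In knock-in cells 6 of the 10 were called higher and 0 lower, where 26.4% of all tested genes were called higher and 25.8% lower, with a median log2 fold change of 0.87 against 0.12 for all. In wild-type cells 3 were called higher and 0 lower, where 17.1% of all were called higher and 20.8% lower, with a median of 0.41 against 0.08. RBFOX2, an RNA splicing regulator that lies between APOL6 and APOL3, rose by 0.86 ± 0.15 in knock-in (edgeR, adjusted p = 0.00118) and 0.63 ± 0.15 in wild-type cells (0.00885). MYH9, the non-muscle myosin heavy chain next to APOL1, rose by 1.29 ± 0.23 (edgeR, adjusted p = 0.00132) and 0.92 ± 0.23 (0.0116). TOM1, an endosomal sorting protein, rose by 1.23 ± 0.20 in knock-in cells (edgeR, adjusted p = 0.000845) and stood at 0.54 ± 0.19 in wild-type cells (0.0551). FOXRED2, which acts in the degradation of misfolded proteins, rose by 0.96 ± 0.24 (edgeR, adjusted p = 0.00792) and 0.83 ± 0.24 (0.0223).

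These neighbours' calls depended on the processing. With spike-in scaling 0 neighbours were called higher and 3 lower in each line. RBFOX2 was then at 0.33 in knock-in and −0.17 in wild-type cells, MYH9 at 0.76 and 0.082, TOM1 at 0.70 and −0.29, and FOXRED2 at 0.43 and 0.036. With the trend on transcript GC content and length removed, MYH9 was at 0.16 (edgeR, adjusted p = 0.35) in both lines, and FOXRED2 at 0.16 (0.608) in knock-in and 0.28 (0.359) in wild-type cells. TOM1 was at 0.46 (edgeR, adjusted p = 0.0344) in knock-in and 0.13 (0.566) in wild-type cells, and RBFOX2 was called in both (0.63 and 0.42). Without both knock-in libraries of number 2, the knock-in values were 0.65 for RBFOX2, 0.61 for FOXRED2, 1.18 for TOM1 and 1.03 for MYH9. These are given as sizes alone, since 1 library was left in each knock-in group.

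**Figure D5:**
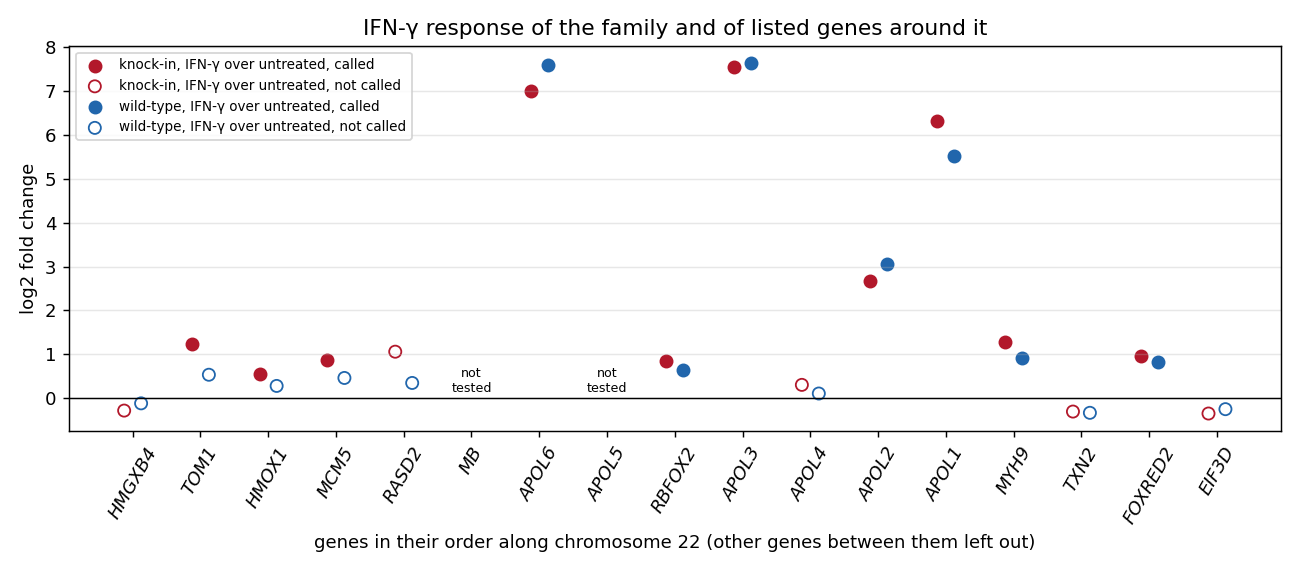
Log2 fold change of IFN-γ over untreated cells for the family and the listed neighbours, in their order along chromosome 22, with filled points for called genes (adjusted p under 0.05) and open points for the others. APOL4 lies near 0 between the induced APOL3 and APOL2, and no neighbour exceeds 1.29.

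The other lists give the setting of the response. Of 14 tested genes of IFN-γ signalling, 9 were called higher and 5 lower in knock-in cells and 8 higher and 3 lower in wild-type cells, with medians of 1.65 and 1.23 against 0.12 and 0.08 for all tested genes. Over all tested genes 52.1% were called in knock-in and 37.9% in wild-type cells, which is the background for this list and the next ones. IRF1 rose to 352 and 336 CPM in treated against 11.3 and 11.4 CPM in untreated knock-in cells, and to 337 and 361 CPM in treated against 13.6 and 10.3 CPM in untreated wild-type cells. The log2 fold changes were 4.92 ± 0.17 (edgeR, adjusted p = 9.62e-07) and 4.86 ± 0.17 (9.82e-07). Of the 7 Mediator kinase module genes, 2 were called higher and 1 lower in each line's response, with medians of −0.11 and 0.21, a share of calls near that background. Between the lines, 1 was called lower with IFN-γ, and 1 higher and 1 lower without it. Over all tested genes, 1.28% were called lower with IFN-γ, and 4.26% higher and 4.17% lower without it.

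Among 6 tested partners and companions of APOL proteins, 4 were called higher and 1 lower in knock-in and 3 higher and 0 lower in wild-type cells, with medians of 0.69 and 0.65 against 0.12 and 0.08 for all tested genes. GBP1 changed most, with 108 and 102 CPM in treated against 0.223 and 0.123 CPM in untreated knock-in cells. Wild-type cells had 89.7 and 90.8 CPM of it with treatment, against 0 and 0.100 CPM without it. The untreated GBP1 counts are too few to fix the size of the rise. GBP1 passed the filter on low counts only through treated libraries, so its part in these counts and medians is not support. NCS1, a calcium sensor, and PI4KB, the Golgi phosphatidylinositol 4-kinase that it regulates, rose by 1.21 ± 0.23 and 0.78 ± 0.16 in knock-in cells (edgeR, adjusted p = 0.00189 and 0.00318) and by 0.75 ± 0.23 and 0.54 ± 0.16 in wild-type cells (0.0284 and 0.0277). Under spike-in scaling NCS1 was at 0.68 and −0.094 and PI4KB at 0.25 and −0.28, none of them called. Nor were they with the GC and length trend removed, where NCS1 was at 0.24 (edgeR, adjusted p = 0.225) and 0.16 (0.452) and PI4KB at 0.026 (0.906) and 0.062 (0.768). Without both knock-in libraries of number 2, their knock-in values were 0.96 and 0.77, given as sizes alone.

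The other apolipoproteins, which share the name and not the family, were mostly untested or uncalled. Of 17 listed, 6 were tested, and 1 was called higher and 1 lower in each line, with medians of −0.45 in knock-in and −0.19 in wild-type cells. Clusterin (CLU), a secreted chaperone also called apolipoprotein J, rose by 1.03 ± 0.17 in knock-in (edgeR, adjusted p = 0.000919) and 0.88 ± 0.17 in wild-type cells (0.00358), and was not called under spike-in scaling (0.50 and 0.055). APOO, a subunit of the mitochondrial contact site complex, fell by 1.05 ± 0.18 (edgeR, adjusted p = 0.00118) and by 0.77 ± 0.18 (0.00898). Its wild-type value with the GC and length trend removed (−0.43, edgeR, adjusted p = 0.0616) and its knock-in value without both libraries of number 2 (−1.02, 0.0567) were not called, while CLU was called in both settings. Without IFN-γ, 8.43% of all tested genes were called between the lines. Of this list 1 member, APOC1, was called there, with 2.51 and 1.72 CPM in knock-in and 0.0460 and 0.100 CPM in wild-type cells (edgeR, adjusted p = 0.0409). The wild-type counts are too few to fix the size of that difference, and APOC1 is named here after its values were seen. It passed the filter on low counts only through knock-in libraries, where it is high, so its call is not support for a line difference.

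The genes with the pattern most like that of each member were sought over the 8 libraries among 11422 candidates, as the smallest root-mean-square (r.m.s.) difference of centred log2 CPM. APOL3 and APOL6 were each among the other's 3 nearest, with an r.m.s. difference of 0.32. IDO1, the enzyme that breaks down tryptophan, was nearest to both with a prior count of 2, at 0.17 from APOL3 and 0.30 from APOL6. With a prior count of 0.5, APOL3 and APOL6 were each other's nearest (0.31), while IDO1 stood at 0.83 from APOL3 and was not among the 5 nearest to APOL6. SLC15A3, a peptide transporter, came next for APOL3 (0.64), and LGALS9, which encodes galectin-9, for APOL6 (0.76). APOL1 was nearest to SLC15A3 (0.31), the interferon-induced IFIT3 (0.38) and the ADP-ribosyltransferase PARP10 (0.43). With a prior count of 0.5 SLC15A3 was not among its 5 nearest, and IFIT3 was first (0.42). APOL2 was nearest to XAF1 (0.21), PARP14 (0.24) and GBP3 (0.25), all interferon-induced. APOL4, at 0.067 to 0.086, was nearest to AAR2, ATG101 and GTF2E1, whose levels likewise moved little. The distances share the libraries and their scaling, and are descriptions.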

How the data were processed

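Total RNA depleted of rRNA from 8 libraries was quantified by the authors. Estimated counts for Ensembl gene IDs were deposited in 1 table, made with Trimmomatic and kallisto on GRCh38 per the submitters' processing notes. Tool versions, the transcript annotation and the strand setting are not given in sources used here. Of the nonzero values, 58.1% are not whole (tolerance 1e-06), so counts were rounded, and 63 ERCC spike-ins were left out of tests and library sizes. GENCODE release 29 named 35583 of 40295 IDs and gave positions, lengths and GC content.

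Genes were kept by filterByExpr (minimum count 10), which left 16519, and scaled by TMM (factors 0.86 to 1.134). Group was the only factor in edgeR 4.0.16 (R 4.3.3) over all 8 libraries (quasi-likelihood test, Benjamini-Hochberg adjustment, threshold 0.05, common dispersion 0.0415). A standard error is the absolute log2 change over the root of the F statistic, and 95% intervals use the fit's degrees of freedom. For the large responses of APOL3 and APOL1, with few untreated counts, this standard error is too narrow. At low counts edgeR bounds its p by counting error, so intervals are given there only where they fit the p. Counting intervals are exact binomial ones on summed counts and, like the floor of 3 counts, cover counting error only. CPM are TMM-scaled. Levels of different genes are compared per kilobase of merged exons.

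Samples were grouped by title. The replicates may be technical, and p-values measure the spread between these samples. The members, lists and comparisons were chosen with earlier results of these data known. All members are named, with at most 4 called genes per list and comparison and the 3 genes most like each member (log2 CPM with a prior count of 2, at least 5 CPM in a group), of which some are left out for length. The fit was tested on simulated data. The alternatives were 2 other scalings, spike-in scaling, DESeq2 1.42.0, limma-voom (limma 3.58.1), 2 other filters, the replicate block, the groups compared alone, a loess fit (span 0.3) to take out trends with transcript GC and length with and without the block, each library left out, both knock-in libraries of number 2 left out, the longest transcript as length and a prior count of 0.5.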

Additional observations from a re-analysis of the deposited data

How the results depend on the processing

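APOL2 and APOL6 were called in both responses under all 20 alternatives, and 0 of 20 called APOL4. APOL1, with 7 to 14 counts in each untreated library, was called under all 20 as well. With a filter of at least 50 counts, or in the knock-in groups alone, it passed only through treated libraries. Those settings say nothing of its stability. APOL3 was called under all 20 too, which says nothing of its stability, since it entered the test only through the libraries where it is high. In the other comparisons the number of members called was 0 under every alternative but 1. Leaving out each library in turn, the number called higher between untreated lines ranged from 0 to 1, the 1 being APOL6 without wild-type untreated replicate 2. Of the members' alternative values 475 kept their sign and side of the threshold and 18, all uncalled, changed sign.

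With spike-in scaling, APOL4 was at −0.22 in the knock-in and −0.68 in the wild-type response and at −0.27 between untreated lines. APOL3 was then at −0.070 between untreated lines and 0.17 in the difference of responses. In the wild-type response TOM1 was at −0.29, RBFOX2 at −0.17, NCS1 at −0.094 and PI4KB at −0.28. With the GC and length trend removed, APOL4 was at −0.0042 in the wild-type response and −0.011 between untreated lines, and APOL6 at 0.035 between treated lines. With that correction and the replicate block these were −0.0029, −0.0095 and 0.036. Upper-quartile scaling put APOL6 at 0.0083 between treated lines. Leaving out each library in turn, APOL4 ranged from −0.11 to 0.25 in the wild-type response and from −0.090 to 0.18 between untreated lines. APOL6 ranged from −0.053 to 0.0055 between treated lines. In the difference of responses APOL2 ranged from −0.71 to 0.012 (without knock-in untreated replicate 1), APOL3 from −0.30 to 0.13, APOL1 from 0.49 and APOL6 from −0.89 (both without wild-type untreated replicate 2).

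With the longest transcript as length, APOL6 took 50.3% of the family level in treated knock-in, 54.2% in treated and 5.70% in untreated wild-type cells, and APOL2 took 26.0%, 24.4% and 59.3%.

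The replicate block alone changed no call of a member, and put APOL6 at 0.56 between untreated lines (edgeR, adjusted p = 0.115). The labels do not say that equal numbers mark paired samples. Deviations of equal numbers correlated at 0.27 between the knock-in groups and at 0.014 between the wild-type groups.

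Counts over all genes moved more. Genes called higher ran from 616 to 4794 and lower from 2232 to 5476 in the knock-in response, against 4356 and 4257. In the wild-type response they ran from 233 to 3572 and from 2109 to 6745, against 2821 and 3435. Between treated lines they ran from 67 to 1216 and from 51 to 1211, against 269 and 212, and between untreated lines from 137 to 2347 and from 113 to 2468, against 703 and 689. In the difference of responses they ran from 0 to 189 and from 0 to 78, against 0 and 0. The cause of these shifts was not tested. The APOL3 difference between untreated lines could not be fitted on those groups alone, where it fell below the count filter.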
